A study of Mus musculus with 6 samples.

Results

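The mouse Dlx family comprises 6 genes, Dlx1 to Dlx6, and all 6 were found by symbol among the 24453 gene symbols counted in each of 6 RNA sequencing libraries. The libraries came from back skin epidermis of newborn mice at postnatal day 0. 3 were labelled Ring1a-/- Ring1b-/- (called K1, K2 and K3 here for replicates 1, 2 and 3, or dKO) and 3 were labelled Control (C1, C2 and C3). Ring1a and Ring1b are the ubiquitin ligases of Polycomb repressive complex 1, and the title of the series asks what this complex does as skin epithelium develops. All libraries were made from cells sorted as EpCAM and Sca1 positive with high α6-integrin, which enriches interfollicular epidermal progenitors. The sources used here give neither the driver of the deletion, nor the alleles that the Control animals carried, nor whether animals were pooled. The labels do not say whether replicates are different mice. A p-value here thus reflects the spread among these libraries, part of which may be technical.

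Dlx genes encode homeodomain transcription factors related to Drosophila Distal-less. They lie in the mouse genome as convergent neighbours that share enhancers, Dlx1 with Dlx2, Dlx3 with Dlx4 and Dlx5 with Dlx6. Dlx1 and Dlx2 direct the formation of GABAergic interneurons in the embryonic forebrain, Dlx5 and Dlx6 pattern the lower jaw, limb and skeleton, and Dlx3 acts in epidermal and hair follicle differentiation. Dlx loci outside the tissues that use them are known as targets of Polycomb repression.

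The libraries held 18951665 to 31187270 counts in the dKO group and 22699108 to 29193535 in the Control group. The targeted gene Ring1 had 1.66, 5.20 and 14.2 CPM (the usual count scaled to library size, here after trimmed mean of M values, TMM, normalization) in K1, K2 and K3 and 30.9, 17.1 and 3.90 CPM in C1, C2 and C3. K3 thus stood above C3, against the labels, and all directions here are those of the libraries as labelled. On the first principal component of the tested genes (56.2% of variance), K1, K2 and K3 were at 100, 73.6 and 62.0. C1, C2 and C3 were at -90.9, -69.2 and -75.6, so K3 and C3 each fell with their labelled group there. Whether libraries were exchanged or mixed was not tested. Xist, a transcript of the inactive X, was at 6133, 4736 and 4.48 CPM in K1, K2 and K3, against 10.5, 6.91 and 1757 CPM in C1, C2 and C3. The Y-linked Ddx3y was at 0.0346, 0.206 and 76.2 CPM in K1, K2 and K3, against 91.2, 102 and 59.7 CPM in C1, C2 and C3, so C3 held both. Results for the Dlx genes are therefore also given without both replicate 3 libraries. In that fit K1 and K2 had high Xist and C1 and C2 had high Ddx3y. Group and these sex-linked levels thus cannot be told apart there. Rnf2, which encodes Ring1b, had 59.5 ± 4.35 CPM in the dKO and 51.3 ± 10.5 CPM in the Control libraries (SD, n = 3 each) and checks no label: its reads are summed over the whole gene, and the deleted exons are not given.

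The 6 genes encode related homeodomains and can still be told apart by a sequencing read. Over whole transcripts, the longest identical stretch between any 2 members was 11 to 23 bases for the 15 combinations, against single reads of 100 nucleotides.

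Dlx1 rose in the dKO libraries. It lies on chromosome 2 (chr2:71528113-71533981, plus strand, GRCm38). Dlx1 had 134, 63 and 72 counts in K1, K2 and K3 and 7, 2 and 6 counts in C1, C2 and C3. Scaled for depth, these were 4.64, 3.24 and 2.34 CPM in K1, K2 and K3 against 0.263, 0.0874 and 0.205 CPM in C1, C2 and C3. Every dKO library was far above every Control library, and the groups did not overlap. The log2 fold change was 4.15 ± 0.70 (SE, n = 3 libraries per group; edgeR quasi-likelihood adjusted p = 0.00765), a 17.8-fold difference. Dlx1 passed the count filter only through its dKO libraries, since 0 of 3 Control libraries reached the 0.358 CPM that 10 counts make in a library of median size. A gene that enters the test in this way had to be higher in the dKO libraries. The call held without any 1 library, with Dlx1 adjusted p from 0.0183 to 0.0334. Without both replicate 3 libraries the Dlx1 log2 fold change was 4.43 ± 1.01 and its adjusted p 0.0671, in a fit that called 2.94% of genes.

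Dlx2 was higher in each dKO library, by less, and did not pass. It lies 9426 bases from Dlx1 on the opposite strand (chr2:71543408-71546754, minus strand). Dlx2 had 5.05, 1.54 and 2.5 CPM in K1, K2 and K3 and 1.05, 0.175 and 0.616 CPM in C1, C2 and C3. The groups did not overlap, although K2, the lowest dKO library, was close to C1, the highest Control library. The log2 fold change of Dlx2 was 2.29 ± 0.79 (SE; edgeR unadjusted p = 0.0180, adjusted p = 0.110), with a 95% interval of 0.50 to 4.09. DESeq2 called Dlx2 (adjusted p = 0.0238) in a test that called 15.3% of its genes. Without both replicate 3 libraries the Dlx2 log2 fold change was 2.40 ± 1.13 (edgeR adjusted p = 0.358). Across the 6 libraries Dlx1 and Dlx2 had a Pearson correlation of 0.90 in log2(CPM + 0.5), which includes the group difference that both share.

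**Figure D1:**
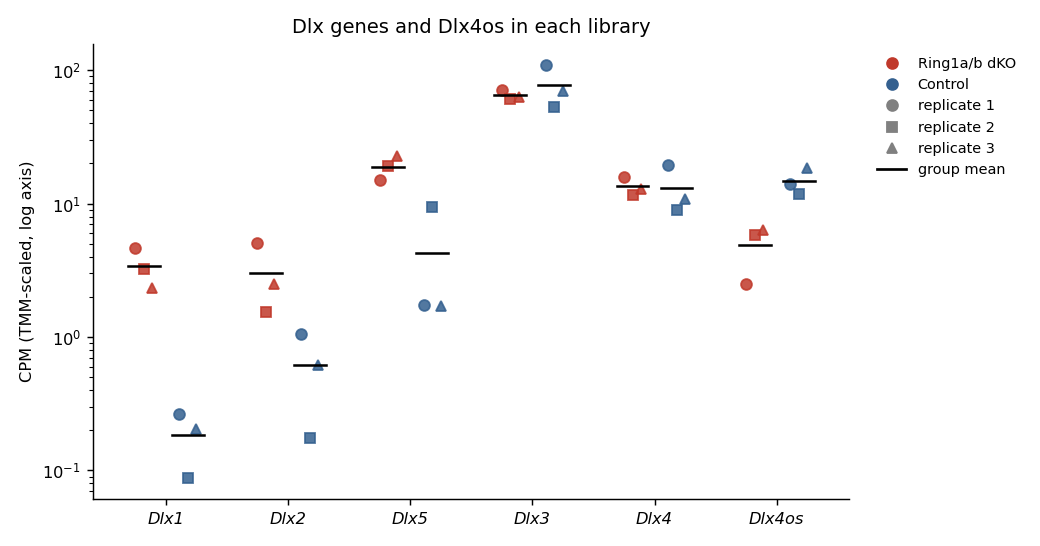
Levels of 5 Dlx genes and of Dlx4os in each library, in CPM on a log axis, with dKO-labelled libraries left of Control-labelled ones, symbols by replicate number and a bar at each group mean of 3 libraries. Dlx1, Dlx2 and Dlx5 have every dKO library above every Control library, Dlx3 and Dlx4 overlap, and Dlx4os has every dKO library (2.49 to 6.30 CPM) below every Control library (11.9 to 18.6 CPM).

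Because the neighbouring Dlx1 and Dlx2 were both higher, their start regions are shown, 250 bases before to 50 bases after the start of transcription in RefSeq on GRCm38.p6, printed 5′ to 3′ along the gene's own strand. The RefSeq table held these windows for 2 of the 6 Dlx genes. Capitals mark CACGTG, the E-box read the same on both strands.
Dlx1 (chr2:71529195-71529494, plus strand): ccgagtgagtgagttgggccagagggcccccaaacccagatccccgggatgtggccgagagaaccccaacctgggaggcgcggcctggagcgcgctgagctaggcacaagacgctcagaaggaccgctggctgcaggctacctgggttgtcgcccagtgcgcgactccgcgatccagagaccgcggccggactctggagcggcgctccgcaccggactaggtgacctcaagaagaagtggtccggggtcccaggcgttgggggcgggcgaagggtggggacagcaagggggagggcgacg
Dlx2 (chr2:71546705-71547004, minus strand): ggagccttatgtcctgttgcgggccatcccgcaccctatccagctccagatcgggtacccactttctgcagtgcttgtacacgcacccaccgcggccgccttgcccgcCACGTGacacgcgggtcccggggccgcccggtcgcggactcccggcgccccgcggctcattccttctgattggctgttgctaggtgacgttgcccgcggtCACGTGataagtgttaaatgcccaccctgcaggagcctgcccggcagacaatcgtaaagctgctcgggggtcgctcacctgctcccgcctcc
Both windows were rich in CpG, the dinucleotide that marks CpG islands, at which Polycomb complexes are known to bind. Dlx1 held 27 and Dlx2 held 29 CpG, against a median of 7 over 32851 windows of the same length, and 84.5% and 87.1% of windows held fewer. The GC content was 69.3% for Dlx1 and 66.3% for Dlx2, against a median of 52.7%. The Dlx2 window held CACGTG at 2 positions and the Dlx1 window at 0, and 7.15% of all windows held it at least at 1 position and 0.594% at 2 or more. TAATT, a core motif of homeodomain proteins, was searched on both strands and found in neither window, against 27% of all windows. These matches describe the letters and not a bound site, and Dlx1 has an annotated start in GENCODE upstream of the RefSeq window.

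Dlx5 was higher in every dKO library than in any Control library, and whether it passed changed with C2, the count filter, the block and the tool. Dlx5 lies on chromosome 6 (chr6:6877805-6882085, minus strand, GRCm38). It had 15.0, 19 and 22.6 CPM in K1, K2 and K3 and 1.73, 9.40 and 1.71 CPM in C1, C2 and C3. The dKO libraries lay close together, while C2 was well above C1 and C3, and the groups did not overlap. The log2 fold change was 2.15 ± 0.65 (SE; 95% interval 0.67 to 3.63), a 4.43-fold difference, at an edgeR unadjusted p = 0.00969 and an adjusted p = 0.0749. Without C2 the Dlx5 log2 fold change was 3.46 ± 0.39 and passed (edgeR adjusted p = 0.00274, with 7.02% of genes called), and without both replicate 3 libraries it was 1.61 ± 0.74 (edgeR adjusted p = 0.343). DESeq2 and limma-voom called Dlx5 with all libraries (adjusted p = 0.00363 and 0.0165), in tests that called 15.3% and 10.6% of genes. With all libraries, edgeR also called Dlx5 without a count filter (adjusted p = 0.0351) and with a replicate block (adjusted p = 0.0339).

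Dlx6, the neighbour of Dlx5 at a gap of 9236 bases (chr6:6863334-6868568, plus strand), was not detectable at this depth. It had 0, 1 and 0 counts in K1, K2 and K3 and 0 counts in C1, C2 and C3. A count of 0 allows up to 3 counts, which is 0.104 CPM in K1, 0.0975 CPM in K3 and 0.103 to 0.131 CPM in the Control libraries, and the 1 count of K2 was 0.0515 CPM. These limits and all counting intervals given here cover counting error only. Dlx6 did not enter the test. Dlx5 and Dlx6 therefore stood far apart in the dKO libraries, at 8.34 ± 1.69 and 0.00723 ± 0.0125 CPM per kilobase of exon (SD, n = 3).

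Dlx3, which acts in the epidermis, and its neighbour Dlx4 did not differ beyond the spread between libraries. Dlx3 (chr11:95120119-95125296, plus strand, GRCm38) had 71.2, 60.3 and 62.5 CPM in K1, K2 and K3 and 110, 53.0 and 69.6 CPM in C1, C2 and C3. The dKO values of Dlx3 all lay within the Control range, which C1 widened at the top. The Dlx3 log2 fold change was -0.26 ± 0.27 (SE; 95% interval -0.87 to 0.35; edgeR adjusted p = 0.607), and without C1 it was 0.08 ± 0.20. Without both replicate 3 libraries it was -0.32 ± 0.39 (edgeR adjusted p = 0.759). Dlx4 (chr11:95140447-95146263, minus strand), 15150 bases away, had 15.8, 11.7 and 12.9 CPM in K1, K2 and K3 and 19.6, 9.0 and 10.9 CPM in C1, C2 and C3. The groups overlapped for Dlx4 as well, with C1 again the highest library, and the log2 fold change was 0.03 ± 0.34 (95% interval -0.74 to 0.80; edgeR adjusted p = 0.971). Without both replicate 3 libraries it was -0.07 ± 0.49 (edgeR adjusted p = 0.968). Dlx3 and Dlx4 followed each other over the 6 libraries, with a Pearson correlation of 0.89, and their levels correlated with those of Dlx1 at -0.18 and 0.25.

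In all, 5 of the 6 Dlx genes were tested, and 1 of them (Dlx1) was called, as higher. Among all 14890 genes tested, 10.2% were called, 7.17% as higher and 2.98% as lower. Of the 5 tested Dlx genes 3 had groups that did not overlap with the dKO libraries higher, against 17.6% of all tested genes. For 0 of the 5 the dKO libraries were lower without overlap, against 14.8%. Dlx1, 1 of the 3, had to be higher, since it entered the test through its dKO libraries alone. Without regard to direction 32.4% of tested genes had groups that did not overlap. Of all called genes 70.6% were higher, and 56.3% when GC and length entered the edgeR fit as an offset, an alternative added later. With that offset the median over all genes was -0.08 on the log2 scale. It called 11.2% of genes, and Dlx1 was still the 1 Dlx gene called (edgeR adjusted p = 0.00990). Dlx1 alone was also called with library size as the only scaling (9.99% of genes called), a filter of 50 counts in 3 samples (10.9%), an Xist covariate (5.48%), and without C1 (7.65%), C3 (5.31%), K1 (9.12%), K2 (5.35%) or K3 (6.52%). Dlx1 and Dlx5 were called without a count filter (8.74%) and with a replicate block (9.74%).

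**Figure D2:**
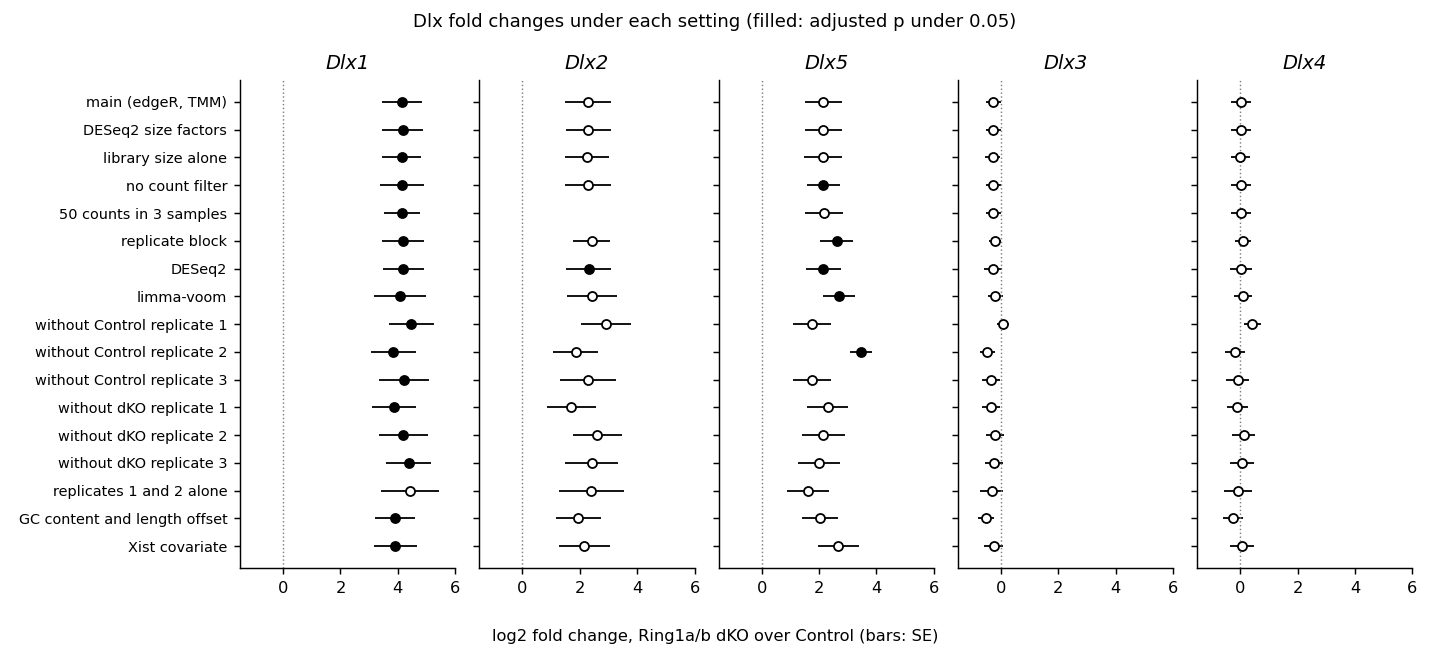
Log2 fold changes of Dlx1, Dlx2, Dlx5, Dlx3 and Dlx4, dKO-labelled over Control-labelled libraries, under each setting of normalization, filter, tool and left-out libraries, with bars for the SE and filled symbols for an adjusted p under 0.05. Dlx1 stays between 3.84 and 4.47 and loses its call with replicates 1 and 2 alone, Dlx5 moves from 1.61 to 3.46, Dlx3 lies between -0.53 and 0.08 and Dlx4 between -0.26 and 0.43.

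Levels of different genes were compared after division by exon length. In the dKO libraries, the order of CPM per kilobase was Dlx3 (24.8 ± 2.22), Dlx5 (8.34 ± 1.69), Dlx4 (4.12 ± 0.650), Dlx2 (1.06 ± 0.635), Dlx1 (0.631 ± 0.215) and Dlx6. Dlx2 and Dlx1 overlapped in that order, and the other neighbours above them did not. In the Control libraries the order was Dlx3 (29.8 ± 11.3), Dlx4 (4.03 ± 1.73), Dlx5 (1.89 ± 1.96), Dlx2 (0.215 ± 0.153), Dlx1 (0.0343 ± 0.0166) and Dlx6 (all SD, n = 3). There Dlx4 and Dlx5 overlapped, because Dlx5 at 4.15 exceeded Dlx4 at 2.75 CPM per kilobase in C2. Dlx5 thus stood above Dlx4 in K1, K2 and K3 and in C2, and below it in C1 and C3. Among 14558 tested genes of known length, Dlx3 was above 89.0% of genes in the dKO and 91.4% in the Control libraries, Dlx5 above 66.1% and 33.4%, and Dlx1 above 15.4% and 1.72%.

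Dlx3 made up most of the length-scaled Dlx expression in every library, and a smaller part in the dKO ones. Its share of the summed CPM per kilobase of the 6 genes was 66.0, 63.8 and 61.1% in K1, K2 and K3 against 85.5, 74.4 and 86.0% in C1, C2 and C3. The share of Dlx5 was 16.0, 23.2 and 25.5% in K1, K2 and K3 against 1.54, 15.2 and 2.43% in C1, C2 and C3. Dlx1 reached 1.10 to 2.08% in the dKO and 0.0593 to 0.122% in the Control libraries. The sum itself was 36.3 to 41.4 CPM per kilobase in the dKO libraries and 27.3 to 49.5 in the Control libraries, so it overlapped between the groups.

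**Figure D3:**
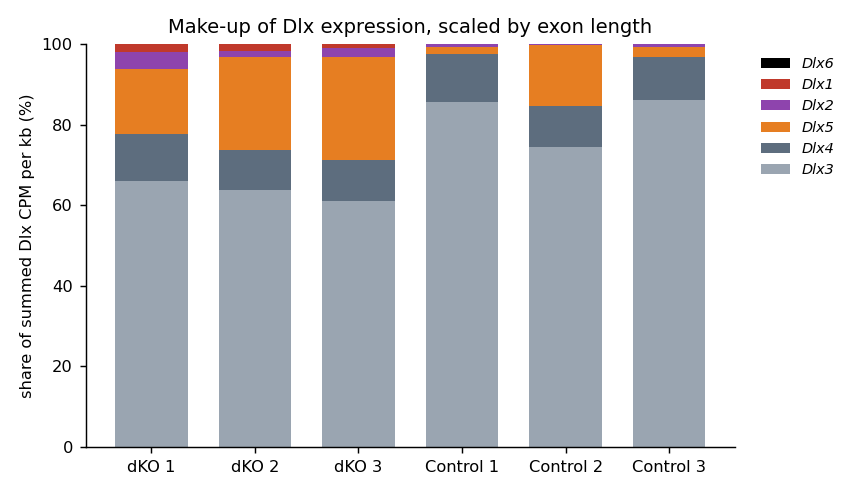
Share of each Dlx gene in the summed CPM per kilobase of exon of all 6 genes, in percent, for the 3 dKO-labelled libraries on the left and the 3 Control-labelled libraries on the right. Dlx3 lies between 61.1 and 66.0% in the dKO libraries and between 74.4 and 86.0% in the Control libraries, and Dlx5 takes 16.0 to 25.5% in the dKO libraries and 1.54 to 15.2% in the Control libraries.

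Whether neighbours changed by different amounts was tested on their ratio within each library. The log2 ratio of Dlx1 to Dlx2 was -0.11, 0.87 and -0.08 in K1, K2 and K3 and -1.02, -0.20 and -0.66 in C1, C2 and C3, a difference of 0.86 (exact permutation test, two-sided, p = 0.1). The log2 ratio of Dlx3 to Dlx4 was 2.14, 2.32 and 2.23 in K1, K2 and K3 and 2.46, 2.49 and 2.62 in C1, C2 and C3, a difference of -0.29 (exact permutation test, p = 0.1). Both ratios separated the groups without overlap. With 3 libraries against 3, 0.1 is the smallest p that this test can give, and the value adjusted over the 2 ratios is the same. The ratios used a pseudocount of 0.5 CPM. With one of 2 CPM the Dlx1 to Dlx2 difference was 0.39 (exact p = 0.2), with a smaller one it was 1.35, and it was 0.53 without K2.

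Antisense transcripts lie within each Dlx neighbourhood, and 1 of the 4 in the files fell. Dlx4os is a noncoding RNA that starts inside Dlx4 on the opposite strand (chr11:95145052-95159047, plus strand). Dlx4os had 2.49, 5.77 and 6.30 CPM in K1, K2 and K3 and 14.0, 11.9 and 18.6 CPM in C1, C2 and C3, without overlap. Its log2 fold change was -1.61 ± 0.40 (SE; edgeR adjusted p = 0.0380), while that of Dlx4 was 0.03. Whether reads were counted by strand is not stated, so reads from both genes cannot be told apart where they overlap, and 79 exonic bases, 2.42% of Dlx4 and 4.75% of Dlx4os, belong to both. The Dlx4os call was lost without C1, C2, C3, K2 or K3 (edgeR adjusted p = 0.0601 to 0.140) and without both replicate 3 libraries (0.197), with log2 fold changes of -1.85 to -1.42. The RefSeq window around the start of Dlx4os, shown because this start lies within Dlx4, held 11 CpG and neither CACGTG nor TAATT.
Dlx4os (chr11:95144803-95145102, plus strand): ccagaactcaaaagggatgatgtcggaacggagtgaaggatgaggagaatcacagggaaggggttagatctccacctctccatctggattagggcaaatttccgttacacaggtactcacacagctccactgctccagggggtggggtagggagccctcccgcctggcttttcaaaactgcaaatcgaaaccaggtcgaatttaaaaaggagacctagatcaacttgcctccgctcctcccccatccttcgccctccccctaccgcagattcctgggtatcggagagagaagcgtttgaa
The other antisense transcripts were not tested. Dlx6os1, also known as Evf2, had 0, 1 and 7 counts in K1, K2 and K3 and 0 in C1, C2 and C3, Dlx1as had 1 count in all, in C1, and Dlx6os2 had 0. Dlx1as shares 335 exonic bases with Dlx1, 6.21% of the Dlx1 exons.

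The coding genes nearest to each Dlx neighbourhood were measured in the same fit, 3 on each side, to show whether the higher values of Dlx1, Dlx2 and Dlx5 extended along the chromosome. Of 18 such genes 16 were tested, 1 was called higher and 0 lower, against 7.17% and 2.98% of all tested genes. The median log2 fold change of the 16 was 0.11, and that of all genes tested was 0.00. Metap1d, a mitochondrial methionine aminopeptidase 2918 bases from Dlx1, had 21.0 ± 3.06 CPM in the dKO and 20.5 ± 3.94 CPM in the Control libraries (log2 fold change 0.03 ± 0.24, SE; edgeR adjusted p = 0.953). Further out on chromosome 2, the histone acetyltransferase Hat1 had a log2 fold change of -0.39, the α6-integrin gene Itga6, whose product was used in the sort, -0.19, the kinase Pdk1 0.29 and the exchange factor Rapgef4 -0.03, and none of them passed (edgeR adjusted p = 0.272 to 0.974). Slc25a12, a mitochondrial aspartate-glutamate carrier, rose (25.2, 34.4 and 31.8 CPM in K1, K2 and K3 against 14.9, 17.5 and 15.8 CPM in C1, C2 and C3; log2 fold change 0.92 ± 0.22; edgeR adjusted p = 0.0306), a call lost without C1, C2, C3, K2 or K3 (0.0701 to 0.127) and with the GC and length offset. Around Dlx3 and Dlx4 the α3-integrin gene Itga3, Pdk2, Samd14, the tachykinin gene Tac4, the acetyltransferase Kat7 and Fam117a had log2 fold changes of -0.34 to 0.49 (edgeR adjusted p = 0.454 to 0.982). Around Dlx5 and Dlx6, the proteasome component Sem1, the carrier Slc25a13, the succinate dehydrogenase assembly factor Sdhaf3 and the asparagine synthetase Asns had log2 fold changes of 0.10 to 0.63 (edgeR adjusted p = 0.280 to 0.828). Dync1i1, a gene known to hold limb enhancers of Dlx5 and Dlx6, had 1, 0 and 3 counts in K1, K2 and K3 and 8, 2 and 0 counts in C1, C2 and C3. Tac1 had 0 counts in all libraries.

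**Figure D4:**
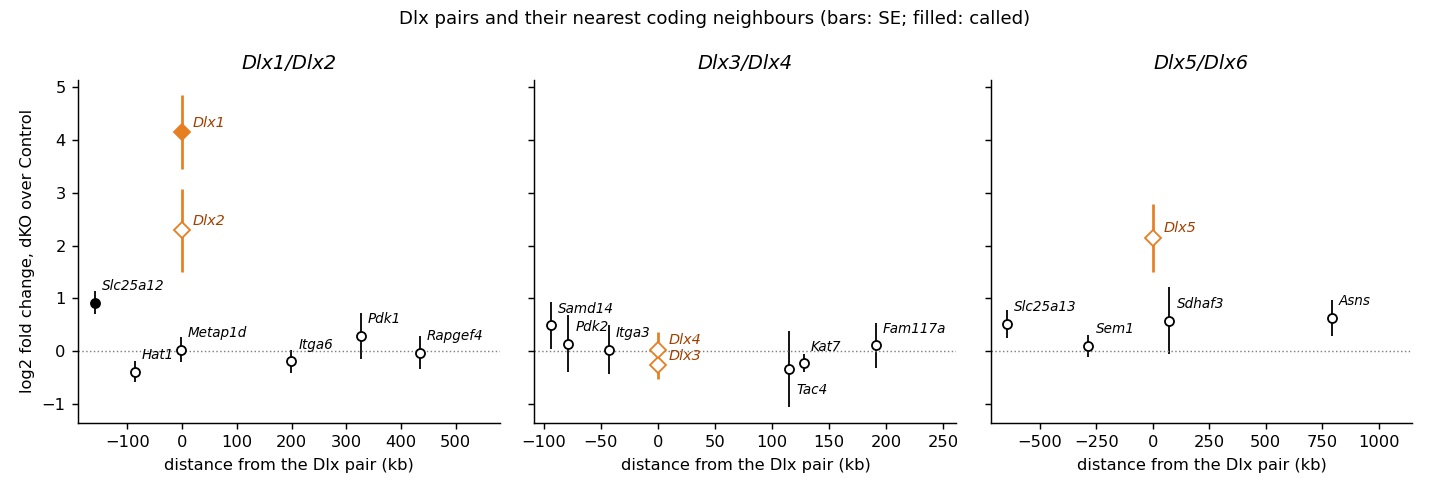
Log2 fold changes, dKO-labelled over Control-labelled libraries, of the Dlx genes (diamonds) and of their nearest tested coding neighbours (circles) by distance from each Dlx neighbourhood in kilobases, with bars for the SE and filled symbols for calls. Dlx1, Dlx2 and Dlx5 stand above their neighbours, which lie between -0.39 and 0.92.

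The genes whose levels over the 6 libraries were most like those of a Dlx gene were listed by Pearson correlation of log2(CPM + 0.5), as a description. For Dlx1 these were Ngef, a guanine nucleotide exchange factor, and Myrf, a factor known from myelinating oligodendrocytes (r = 0.998 each). Ngef had 24.2, 14.7 and 11.6 CPM in K1, K2 and K3 and 1.69, 1.14 and 1.85 CPM in C1, C2 and C3, the same order of dKO libraries as Dlx1. For Dlx5 they were Krt7, a keratin of simple epithelia, and the transcription factor Deaf1 (r = 0.993 and 0.992). Krt7 had 121, 233 and 255 CPM in K1, K2 and K3 and 7.13, 69.6 and 11.5 CPM in C1, C2 and C3, with C2 high among the Control libraries as for Dlx5 (log2 fold change 2.79 ± 0.79, SE; edgeR adjusted p = 0.0587). For Dlx2 they were Por and Col4a1 (r = 0.996 and 0.994), for Dlx3 Ppp1r16a and Plxnb2 (0.988 each) and for Dlx4 Rnf25 and R3hdm4 (0.998 and 0.992). Correlations this high over 6 libraries were picked from all tested genes with at least 5 CPM in a group, and the libraries share the group difference and their depth.

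Genes that regulate Dlx genes in ectoderm went in both directions. Of 12 listed, 11 were tested, 1 rose and 1 fell, against 7.17% and 2.98% of all tested genes. The median log2 fold change of the 11 was -0.32. The groups did not overlap for 7 of the 11. The dKO libraries were higher for Bmp4 and Bmp7 and lower for Trp63, Edn1, Smad1, Smad4 and Smad5. Among all tested genes the groups did not overlap for 32.4%, with 17.6% higher and 14.8% lower in the dKO libraries. Trp63, the master regulator of stratified epithelium and a known activator of Dlx3 and Dlx5, fell (1140, 939 and 969 CPM in K1, K2 and K3 against 1729, 1760 and 1790 CPM in C1, C2 and C3; log2 fold change -0.79 ± 0.16; edgeR adjusted p = 0.0176). Bmp4, a ligand that induces Dlx genes in jaw and limb, rose (64.1, 42.7 and 50.4 CPM in K1, K2 and K3 against 24.1, 16.0 and 6.6 CPM in C1, C2 and C3; log2 fold change 1.75 ± 0.42; edgeR adjusted p = 0.0330). Neither gene had overlapping groups. Both calls depended on single libraries, that of Trp63 on C2, C3, K2 and K3 (0.0683 to 0.0880 without any 1 of them) and that of Bmp4 on C2, K1, K2 and K3 (0.0647 to 0.0853). Edn1, the endothelin ligand that induces Dlx5 and Dlx6 in the mouse jaw, had 20.7, 8.96 and 10.9 CPM in K1, K2 and K3, against 53.3, 26.9 and 29.6 CPM in C1, C2 and C3. It just missed the threshold (log2 fold change -1.43 ± 0.39; edgeR adjusted p = 0.0512) and passed without a count filter (0.0231), with library size alone (0.0383), the block (0.00885), DESeq2 (0.00484) and limma-voom (0.0451). Bmp7, another ligand of the family, had a log2 fold change of 0.63 ± 0.18 (edgeR adjusted p = 0.0587) and passed with the block (0.0465), DESeq2 (0.0294) and limma-voom (0.0489). Edn1 and Bmp7 were chosen after their values were seen. Of the Msx genes, homeobox relatives that act with Dlx genes, the 1 tested, Msx2, had 10.8 ± 2.57 CPM in the dKO and 7.53 ± 1.65 CPM in the Control libraries (edgeR adjusted p = 0.380). Msx3 had 10, 52 and 49 counts in K1, K2 and K3 and 0 in each Control library, at least 36.9-fold higher over a floor of 3 counts in the group, and Msx1 had 30 of its 31 counts in K1.

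Genes of epidermal and hair differentiation linked to Dlx3 went in both directions. All 17 found in the files (18 listed) were tested, 4 rose and 5 fell, against 7.17% and 2.98% of all tested genes. The median log2 fold change of the 17 was 0.02. Those that rose included Sprr1a, a cornified envelope precursor (2062, 612 and 434 CPM in K1, K2 and K3 against 59.7, 55.2 and 35.8 CPM in C1, C2 and C3), Grhl3 and Zfp750, regulators of barrier formation (log2 fold changes 1.89 and 0.93), and Tgm1, the main envelope transglutaminase (2.15). Those that fell included Tgm3, another transglutaminase (6.23, 3.40 and 3.8 CPM in K1, K2 and K3 against 23.6, 37.0 and 30.0 CPM in C1, C2 and C3). Krt25, an inner root sheath keratin, also fell, with 0 counts in the dKO and 115, 322 and 140 counts in the Control libraries. The edgeR adjusted p of these 6 genes was 0.00172 to 0.0106, and without C3 that of Zfp750 was 0.0599. The list mixes layers of the epidermis with the hair follicle. Of 8 hair follicle markers 3 fell, Krt25, Krt71 and Lef1. The Krt71 call (edgeR adjusted p = 0.0268) was lost without C2, K1 or K3 (0.0526 to 0.0997). Lhx2 was higher without overlap and did not pass (58.2, 64.5 and 64.4 CPM in K1, K2 and K3 against 53.2, 22.9 and 11.2 CPM in C1, C2 and C3; edgeR adjusted p = 0.194). Sox9, Shh and Msx2 overlapped between the groups. The summed level of the 8 markers was 1078 to 1580 CPM in the dKO and 920 to 1081 CPM in the Control libraries, most of it from Krt17 in every library but C1. Krt17 had 941, 894 and 740 CPM in K1, K2 and K3, against 362, 558 and 679 CPM in C1, C2 and C3. It did not pass (log2 fold change 0.69; edgeR adjusted p = 0.118). The sum overlapped between the groups, with K3 at 1078 and C1 at 1081 CPM, and so did not follow the markers that fell. The part of these markers in the result was not tested.

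Genes that Dlx1 and Dlx2 are known to act with in mouse GABAergic neurons had few counts, and most of them did not enter the test. Of 18 listed, 8 were tested, 5 rose and 0 fell, against 7.17% and 2.98% of all tested genes. The 5 that rose were the transcription factors Sp8, Sp9, Isl1 and Pou3f4 and the vesicular GABA transporter Slc32a1. Slc32a1 had 23, 44 and 92 counts in K1, K2 and K3 and 0 in each Control library, at least 52.8-fold higher over a floor of 3 counts in the group. Likewise Isl1 was at least 85-fold, Pou3f4 at least 59.8-fold and Sp8 at least 37.8-fold higher, and Sp9 had 286 dKO and 1 Control count, a ratio of 285 (95% counting interval 50.7 to 11290). Their edgeR adjusted p was 0.00282 to 0.0138, and that of Sp8 was 0.0598 without K2. Gad1 and Gad2, the enzymes of GABA synthesis, were not tested. Gad1 had 13, 0 and 5 counts in K1, K2 and K3, against 6, 0 and 0 in C1, C2 and C3. Gad2 had 10, 0 and 2 counts in K1, K2 and K3, against 0, 7 and 0 in C1, C2 and C3. The homeobox gene Gsx2 had 0 counts in all libraries. The 5 called genes entered the test only through dKO counts and so had to be higher, and the median log2 fold change of the 8, 8.01 or 5.48 with 4 genes at their bounds, is no support for the list. Isl1 is also among the Merkel cell markers given further on.

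More genes of jaw and bone were counted. Of 22 listed with Dlx5 and Dlx6, 15 were tested, 10 rose and 0 fell, against 7.17% and 2.98% of all tested genes. The median log2 fold change of the 15 was 4.72, against 0.00 over all genes tested. Most of the 10 were near 0 in the Control libraries and entered the test through the dKO libraries alone. Osr1 and Osr2, zinc finger factors of palate and limb, rose. Osr1 reached 9.03, 7.57 and 6.86 CPM in K1, K2 and K3, against 0.0750, 0.131 and 0.205 CPM in C1, C2 and C3. Osr2 reached 23.4, 10.7 and 19.1 CPM in K1, K2 and K3, against 1.13, 0.175 and 0.684 CPM in C1, C2 and C3. Alpl, the alkaline phosphatase of mineralizing tissue, had 7.68, 5.15 and 6.50 CPM in K1, K2 and K3 and 0.150, 0 and 0 CPM in C1, C2 and C3. The homeobox genes Barx1 and Pitx1 were higher by 9.46 and 8.83 on the log2 scale, and the edgeR adjusted p of these 5 genes was 2.67e-04 to 0.00419, and no call among them was lost without any 1 library. Hand2, the factor downstream of Dlx5 and Dlx6 in the mouse jaw, had 1, 9 and 26 counts in K1, K2 and K3 and 1, 0 and 0 counts in C1, C2 and C3 and was not tested. The osteoblast genes Sp7, Ibsp and Bglap had at most 18 counts in any library and were not tested. Bglap had 3, 4 and 9 counts in K1, K2 and K3 and 9, 11 and 18 counts in C1, C2 and C3. In CPM it was lower in the dKO libraries without overlap (0.104, 0.206 and 0.292 against 0.338, 0.481 and 0.616). Sp7 and Ibsp had 0 counts in each dKO library, against 0, 1 and 0 (Sp7) and 1, 1 and 0 (Ibsp) in C1, C2 and C3.

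Markers of other cells were measured beside the Dlx results, since in bulk samples fewer cells of a type and less RNA per cell cannot be told apart. The sorted cells carried the markers of basal keratinocytes, whose 8 genes summed to 25697 to 30807 CPM in the dKO and 29501 to 43824 CPM in the Control libraries. Krt5 made up most of this sum, and 2 of the 8 tested, Trp63 and the hemidesmosome collagen Col17a1, fell (log2 fold changes -0.79 and -0.74; edgeR adjusted p = 0.0176 and 0.0278). Epcam, whose product was used in the sort, went the other way without overlap and did not pass. It had 381, 216 and 207 CPM in K1, K2 and K3 against 168, 131 and 116 CPM in C1, C2 and C3 (log2 fold change 0.95; edgeR adjusted p = 0.0598). The groups overlapped for Ly6a (0.54), Itgb4 (0.25), Itga6 (-0.19), Krt14 (-0.32) and Krt5 (-0.37). The 7 fibroblast markers summed to 435 to 728 CPM in the dKO and 245 to 791 CPM in the Control libraries, and 0 of 6 tested were called. The 4 osteoblast markers summed to 38.2 to 122 CPM in the dKO and 4.63 to 18.7 CPM in the Control libraries. Most of that was Runx2, the 1 tested and called (log2 fold change 2.87; edgeR adjusted p = 0.0303, and 0.0727 to 0.104 without C2, C3 or K1). The 7 Merkel cell markers summed to 54.4 to 104 CPM in the dKO and 4.85 to 10.1 CPM in the Control libraries. Most of the sum was Krt18 and Piezo2. All 4 tested (Krt18, Sox2, Isl1 and Piezo2) rose, and 7.17% of all tested genes were called higher and 2.98% lower. Sox2 and Isl1 had 0 Control counts, entered the test through the dKO libraries alone and so had to be higher. Krt8 (57, 4 and 6 counts in K1, K2 and K3 against 32, 0 and 6 in C1, C2 and C3) was not tested. Krt20 (63, 7 and 1 against 0, 3 and 4) was not tested either. The defining Merkel cell factor Atoh1 had 0, 3 and 3 counts in K1, K2 and K3 and 1, 0 and 10 counts in C1, C2 and C3. The 5 markers of Schwann cells and nerve summed to 3.57 to 10.2 CPM in the dKO and 2.19 to 7.69 CPM in the Control libraries, with Tubb3 the 1 of 4 tested that rose. Of melanocyte, endothelial and leukocyte markers 0 were called, and their sums overlapped between the groups for endothelium (7.93 to 37.9 CPM in the dKO, 7.26 to 46.4 CPM in the Control libraries) and leukocytes (41.6 to 160 CPM in the dKO, 93 to 199 CPM in the Control libraries). The melanocyte sum was 16.3 to 27.3 CPM in the dKO and 12.9 to 16.3 CPM in the Control libraries. Of its tested genes, Tyrp1 and Dct were higher in the dKO libraries without overlap (log2 fold changes 3.99 and 1.55; edgeR adjusted p = 0.0651 and 0.128). Pmel, Mitf and Sox10 overlapped between the groups. The part of these cells in the Dlx results was not tested.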

How the data were processed

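RNA sequencing was deposited as 6 files, 1 per library, of raw counts per gene symbol, with no normalization. Per the labels' protocols, 10 ng of RNA from sorted cells was amplified and 100 ng of sonicated cDNA made into libraries, sequenced as single reads of 100 nucleotides. Per the submitters' processing notes, the tools named are HTSeq 0.6.1, DESeq2 1.6.3, Cufflinks 2.2.1 and TopHat2 2.0.13, with the build mm10. The role of each tool, the annotation and the strand of counting are not given in the sources used here.

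The Dlx genes, the gene lists and the tests were chosen with earlier results of these data known, and the motifs after the sequences were read. The named genes are the Dlx genes, Ring1 and Rnf2, up to 6 called genes of each list by smallest p, the flanking genes and the 2 genes most like each Dlx gene with at least 5 CPM in a group. Others were chosen after their values were seen, as were markers. Some named genes and sequences are not reported here.

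Counts were fitted over all genes with edgeR 4.0.16 in R 4.3.3 (TMM, filterByExpr with a minimum count of 10 and total of 15, two-sided quasi-likelihood F test without covariates, calls at a Benjamini-Hochberg adjusted p under 0.05). The biological coefficient of variation was 38.3%. SE and 95% intervals come from the same test. Library pairs within a group differed by a chi-square of at least 28.6 per degree of freedom, so none is a copy. Alternatives used DESeq2 1.42.0 and limma 3.58.1. The scripts were tested on simulated counts. Exon lengths, positions and flanking genes come from GENCODE M21 on GRCm38, the build that mm10 names, and promoters from RefSeq on GRCm38.p6. Of the symbols, 23758 matched 1 GENCODE gene. Figures used matplotlib 3.10.9.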

Additional observations from a re-analysis of the deposited data

How the results depend on the processing

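Of the 5 tested Dlx genes 1 was called in the main analysis, 2 without a count filter, with a replicate block or with limma-voom, 3 with DESeq2 and 0 with replicates 1 and 2 alone (log2 fold change of Dlx1 4.43, adjusted p = 0.0671). Leaving out 1 library each gave 1 to 2. Dlx1 kept its direction and call under all other settings, at 3.84 to 4.47 on the log2 scale without 1 library each. Dlx2 stayed positive throughout (1.71 to 2.91 without 1 library each, 2.31 and called with DESeq2). Dlx5 stayed positive and was called without a count filter (2.15), with the replicate block (2.61), DESeq2 (2.15) and limma-voom (2.69), and was 1.76 to 3.46 without 1 library each. Dlx3 turned positive without C1 (-0.47 to 0.08 without 1 library each). Dlx4 was -0.18 to 0.43 without 1 library each, -0.26 when offset for GC and length and -0.07 from replicates 1 and 2, so it has no stable direction. The cause of these changes was not tested. The filter of 50 counts in 3 samples leaves no value for Dlx2.

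Over all genes, 1512 were called in the main analysis, 2561 with DESeq2, 811 to 1393 without 1 library each, 439 with replicates 1 and 2 alone and 816 with Xist as a covariate, which like the GC and length offset was chosen after the data were seen. Of the listed context genes 28 were called, 19 to 26 without 1 library each and 13 with replicates 1 and 2 alone. The ratio differences kept their sign in all settings run, at 0.53 to 1.07 (Dlx1 to Dlx2) and -0.34 to -0.25 (Dlx3 to Dlx4) without 1 library each.

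The labels do not say that replicate numbers pair the libraries. Deviations from the group means correlated at 0.17, 0.21 and 0.07 for numbers 1, 2 and 3, so not every pair was over 0.1, the level set for pairing. Every library did correlate best with its own number, since all other combinations were at -0.18 to 0.00, which is a hint from the data and not the design. The second principal component (18.4% of variance) put K1 and C1 at 66.1 and 61.0 and the other libraries at -41.3 to -17.4. With the replicate block 1451 genes were called, and Dlx1 had a log2 fold change of 4.17 (edgeR adjusted p = 0.0173). The ratios under the replicate block allow no p below 0.25. Depth limits the statements on Dlx6, Dlx1as and Dlx6os2, which had at most 1 count in any library.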
